A study of Mus musculus with 6 samples.

Results

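The collagen chain genes were taken from the deposited table of expected counts as every row whose symbol was *Col*, a number, *a* and a number, which gave 44 of the 56980 genes. They were grouped by the number of the collagen. The fibrillar group held 11 genes (types I, II, III, V, XI, XXIV and XXVII), the basement membrane group held 8 (types IV, XV and XVIII), the FACIT group held 9 (fibril-associated collagens with interrupted helices, among them types IX, XII, XIV and XVI) and the remaining 16 formed a group of other types (among them the beaded-filament, network-forming, anchoring and transmembrane collagens). The rule reads only the symbol, although the family was picked with earlier results of these data known.

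RNA was sequenced from marrow cells of ovariectomized (OVX) mice that had received faecal microbiota transplantation (FMT). The surgery was done at 8 weeks of age and the FMT lasted 8 weeks. Donors of the TranspCtrl group (n = 3) were sedentary OVX mice, and donors of the TranspExer group (n = 3) were OVX mice trained on a treadmill. Recipients of both groups had been ovariectomized and given antibiotics to empty the gut before the transplant, so neither a sham-operated nor an untransplanted group enters the comparison, which asks how the marrow mesenchymal stromal cells (MSCs) of recipients differed with the training of the donors. The cells were flushed from femurs and tibias and kept in culture for 7 days with washing, and no sorting step was described. Nothing in the labels says that the 3 samples of a group came from separate animals, so the p-values measure only the spread between these samples, which may be technical.

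A collagen molecule is a helix wound from 3 α chains, and each gene here encodes 1 kind of chain. Fibrillar collagens polymerise into the banded fibrils that bear load in bone, tendon and skin, and type I is the main protein of bone matrix. FACITs sit on the surface of such fibrils. Type IV collagen instead forms the sheet-like network of basement membranes around vessels and other tissues, where types XV and XVIII are also found. In cultured marrow stroma the fibrillar genes are made mostly by the adherent stromal cells, and endothelial cells are a well known source of type IV collagen.

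The libraries held 17647682 to 21319228 counts in total, and 3 counts corresponded to 0.141 to 0.17 counts per 1000000 counts (CPM) before scaling between libraries. CPM below are scaled between libraries by the trimmed mean of M values (TMM). In log2 CPM over all tested genes, TranspCtrl replicate 1 lay 60.2 and 62.8 from the other TranspCtrl libraries, which were 37 apart, while distances within TranspExer were 42.8 to 43.9 and those between the groups 82.7 to 110. Where leaving that library out changes the call of a collagen gene, both values are given. Of the markers of stromal cells, 10 of 10 were above the low-count filter and their summed level was 2140 to 2406 CPM in TranspCtrl and 2123 to 2158 CPM in TranspExer. The cultures also held macrophage markers, whose summed level was 3226 to 3556 CPM in TranspCtrl and 3531 to 3643 CPM in TranspExer, so the label MSC covers a mixed population. In such bulk samples, fewer cells of a type and less RNA per cell cannot be told apart.

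The basement membrane collagen genes were mostly higher in TranspExer, while more of the fibrillar genes were lower than higher. Of the 44, 32 passed the filter on low counts, and 8 of these were higher and 15 lower in TranspExer at an adjusted p below 0.05 (edgeR quasi-likelihood test, Benjamini-Hochberg adjustment over all 15190 genes tested). Over all tested genes 32.2% were called in either direction, 16.6% higher and 15.5% lower, against 71.9% of the collagen genes above the filter. The collagen genes are abundant, and among all genes with a mean of at least 100 CPM the share called was 43.6%, against 11 of the 14 collagen genes at that level. With the 2-fold limit used for differentially expressed genes (DEGs) as well, 4 collagen genes were higher and 10 lower, beside 3.5% and 5.28% of all tested genes; without TranspCtrl replicate 1, 8 were lower. The 3 samples of one group lay wholly above or below those of the other for 24 of the 32 genes (8 higher, 16 lower), beside 52.4% of all tested genes. Without TranspCtrl replicate 1, 10 were called higher and 17 lower, beside 22.1% and 19.6% of 15494 genes tested. Scaling by the upper quartile or by library size gave 8 higher and 16 lower, although over all genes these scalings moved the share of calls that were higher from 51.7% to 41.4% and 40.5%.

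By type, 4 of the 5 basement membrane genes above the filter were called higher and none lower, with a median log2 fold change of 1.15. For this and each marker list below with none called in a direction, 0 members were past an unadjusted p of 0.05 in edgeR and 0 were called by DESeq2 in that direction. For the 11 fibrillar genes the calls were 2 higher and 6 lower, with a median of -0.61. Among 5 FACIT genes above the filter 1 was called higher and 3 lower (median -0.97), and among 11 genes of other types 1 higher and 6 lower (median -0.44). The median over all 15190 genes tested was -0.018. Without TranspCtrl replicate 1 the fibrillar calls became 4 higher and 7 lower and the FACIT calls 1 higher and 2 lower, without TranspExer replicate 3 the fibrillar calls were 1 higher and 6 lower, and the 4 basement membrane calls were made in every one of the 12 alternative fits that tested against no change.

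**Figure D1:**
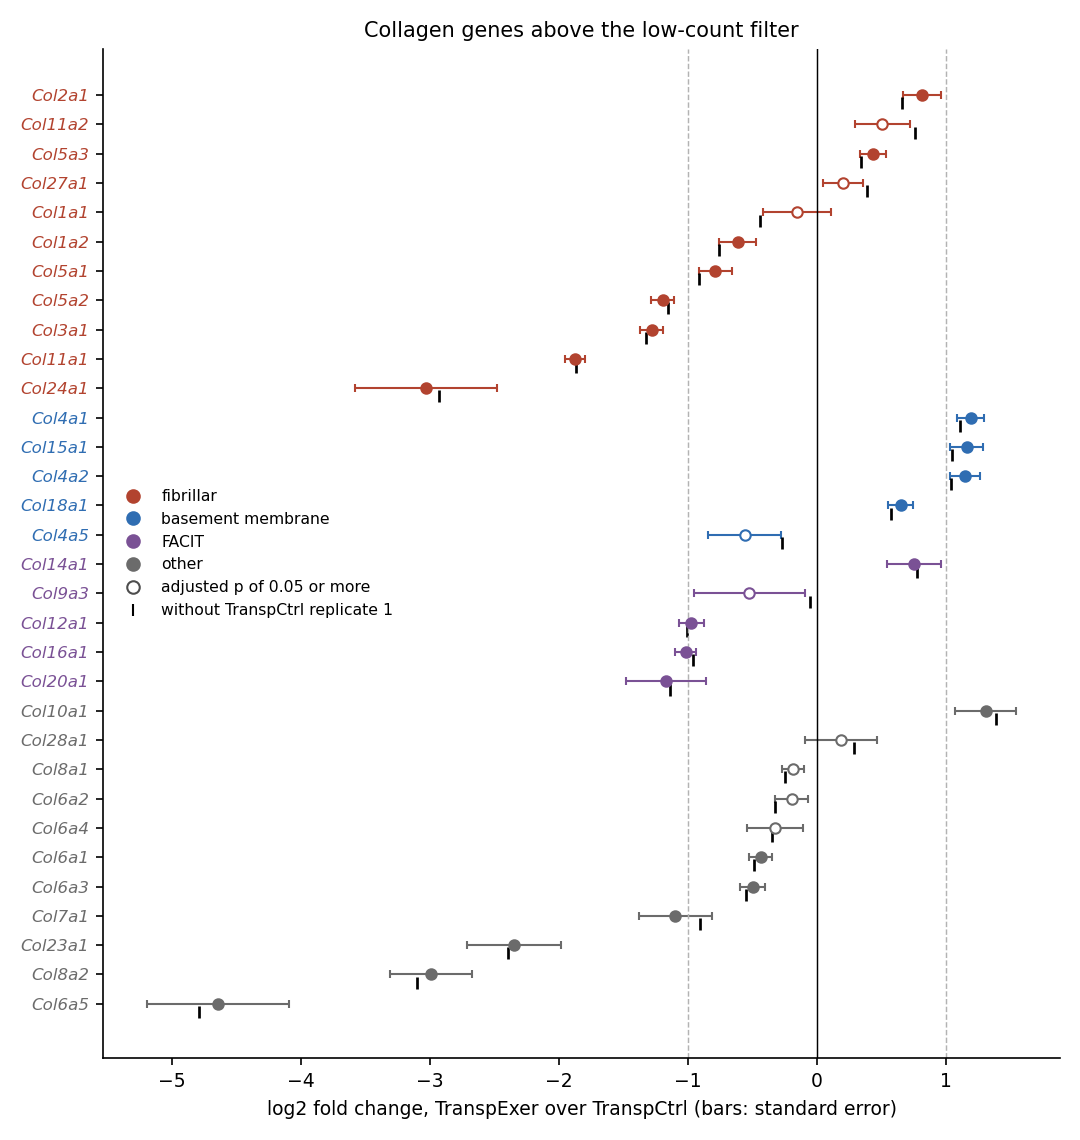
Log2 fold change of TranspExer over TranspCtrl (x axis) for the 32 collagen genes above the low-count filter, coloured by type, with bars for the standard error, open circles for genes with an adjusted p of 0.05 or more, dashed lines at a 2-fold change and black ticks for the fit without TranspCtrl replicate 1. The basement membrane genes *Col4a1*, *Col15a1*, *Col4a2* and *Col18a1* lie between 0.65 and 1.19, while *Col3a1*, *Col5a2* and *Col11a1* lie between -1.88 and -1.196; the value drawn for *Col6a5* depends on near-zero counts in TranspExer.

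The type IV genes carried most of the basement membrane signal. *Col4a1* (ENSMUSG00000031502, chr8:11198423-11312826, minus strand, mm10), which encodes the α1 chain found in nearly all basement membranes, was at 349.5, 440.2 and 400.7 CPM in the 3 TranspCtrl samples and at 862.1, 906.2 and 949.4 CPM in the 3 TranspExer samples (positions here and below are those of GENCODE M21 genes). *Col4a2* (ENSMUSG00000031503, chr8:11312805-11449287, plus strand), whose α2 chain joins α1 in the same molecule, was at 229.8, 306.5 and 282.5 CPM in TranspCtrl and 584.5, 590.7 and 639.1 CPM in TranspExer. For both genes every TranspExer sample was above every TranspCtrl sample, and TranspCtrl replicate 1 was the lowest of the 6. *Col4a1* rose by a log2 fold change of 1.19 (SE 0.105, n = 3 per group, edgeR adjusted p = 0.000211), from 396.8 ± 45.5 CPM (SD) to 905.9 ± 43.6 CPM. *Col4a2* rose by 1.15 on the log2 scale (SE 0.117, edgeR adjusted p = 0.000391). Without TranspCtrl replicate 1 the log2 fold changes were 1.11 and 1.04.

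These genes are neighbours on chromosome 8, transcribed away from each other, and their first exons overlap by 22 bases in the GENCODE annotation. The overlap is shown because the upstream window of each gene lies inside the other gene and wholly within annotated exons, so that neither has an exon-free promoter sequence to print. It reads, on the plus strand at chr8:11312805-11312826 (RefSeq, GRCm38.p6):

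*Col4a1* and *Col4a2* overlap: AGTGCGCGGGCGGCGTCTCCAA

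It holds 1 copy of the GC box GGGCGG. Within each sample the ratio of *Col4a1* to *Col4a2* counts did not separate the groups, at 1.419 to 1.521 in TranspCtrl and 1.475 to 1.534 in TranspExer. The ratio of the chains that assemble together was thus alike in both groups, while both levels were more than 2-fold higher in TranspExer.

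*Col15a1* and *Col18a1* encode the multiplexin collagens of the basement membrane zone, and a fragment of the latter is endostatin. *Col15a1* (ENSMUSG00000028339, chr4:47208161-47313167) stood at 26.9, 37.07 and 32.64 CPM in TranspCtrl and at 65.76, 70.9 and 79.43 CPM in TranspExer, and it rose by 1.16 on the log2 scale (SE 0.128, edgeR adjusted p = 0.000548). *Col18a1* was at 77.93, 97.59 and 87.46 CPM in TranspCtrl and 132, 140.2 and 140.5 CPM in TranspExer, a smaller rise of 0.65 (SE 0.096, edgeR adjusted p = 0.002107). For both genes the groups did not overlap. *Col4a5*, which encodes a chain of the network in kidney, eye and muscle, had 1.906 to 3.955 CPM in TranspCtrl and 1.788 to 2.092 CPM in TranspExer, with a log2 fold change of -0.56 (SE 0.283, edgeR adjusted p = 0.163), and -0.27 without TranspCtrl replicate 1, and did not pass the test. The partner chains *Col4a3*, *Col4a4* and *Col4a6* had at most 10 counts in any sample and were below the filter.

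Summed over the type, basement membrane collagens gave 688.5, 884.8 and 805.7 CPM in TranspCtrl and 1647, 1710 and 1811 CPM in TranspExer, a ratio of means of 2.17. Markers of another cell type moved with this group. Of 10 endothelial markers 10 were called higher (over all tested genes, 16.6% were higher and 15.5% lower), with a summed level of 223.6 to 270.2 CPM in TranspCtrl and 703.8 to 767.5 CPM in TranspExer. Those with the smallest adjusted p were the following: the sialomucin *Emcn* rose from 18.87 ± 1.44 to 53.94 ± 3.81 CPM, the scavenger receptor *Stab2* from 9.30 ± 0.295 to 25.1 ± 1.11 CPM and the VEGF receptor *Kdr* from 18.87 ± 1.56 to 55.1 ± 5.66 CPM (SD, n = 3). Of 7 markers of pericytes and smooth muscle, 4 were called higher and 2 lower, among the former *Cspg4* (1.95 ± 0.491 to 13.8 ± 1.34 CPM), *Rgs5* (5.29 ± 1.12 to 19.7 ± 0.857 CPM) and *Mcam* (74.0 ± 5.47 to 148.8 ± 3.59 CPM). Their summed level went the other way, from 2475 to 2922 CPM in TranspCtrl to 1781 to 1990 CPM in TranspExer, since most of it is *Acta2* and *Tagln*. The part of these cells in the change of the basement membrane collagens was not tested.

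The other structural genes of basement membranes were called about as often as genes in general. Of 11 such partners (laminin chains, nidogens, perlecan, agrin, *Sparc* and *Npnt*), all above the filter, 1 was called higher and 3 lower, beside 16.6% and 15.5% of all tested genes, with a median log2 fold change of -0.055. The nidogen *Nid2*, which links laminin to type IV collagen, rose by 0.55 on the log2 scale (SE 0.126, edgeR adjusted p = 0.01338), a call that was lost without TranspExer replicate 2 or 3. Those called lower were the laminin β2 chain gene *Lamb2* (log2 fold change -0.74, edgeR adjusted p = 0.0003721), the gene *Sparc* of a collagen-binding matricellular protein (-0.89, edgeR adjusted p = 0.001377) and the nephronectin gene *Npnt* (-0.51, edgeR adjusted p = 0.02545). The calls lower were 2 in each fit that left out a library other than TranspCtrl replicate 1 and 4 without that library, and in the former it was *Npnt* that was lost. These 4 were named after their values were seen, because none of the 11 passed the 2-fold limit. The laminin chain genes that pair with *Lamb2* did not pass the test, with *Lamc1* at a log2 fold change of 0.23 (edgeR adjusted p = 0.1468).

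Of the 6 fibrillar genes called lower, *Col24a1* and *Col11a1* had the lowest fold changes. *Col11a1* (ENSMUSG00000027966, chr3:114030540-114220718, plus strand), which encodes a chain of the type XI collagen that sits in the core of thin fibrils, was at 143.1, 145.5 and 135.1 CPM in TranspCtrl and at 38.08, 36.56 and 40.58 CPM in TranspExer. It fell by 1.88 on the log2 scale (SE 0.078, edgeR adjusted p = 1.682e-05), and its samples varied little within each group. *Col24a1*, a type XXIV chain found in embryonic bone and cornea, had 71, 53 and 64 counts in TranspCtrl and 12, 0 and 9 counts in TranspExer, and fell by 3.03 (SE 0.552, edgeR adjusted p = 0.005355). Its lower group rests on few counts, 1 sample having none, and the log2 fold change was -3.65 without TranspExer replicate 1 and -2.51 without TranspExer replicate 2.

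*Col3a1* and *Col5a2* lie next to each other on chromosome 1, in opposite orientation, with 24.6 kb and no protein-coding gene between them. *Col3a1* (ENSMUSG00000026043, chr1:45311538-45349706, plus strand) encodes type III collagen, a fibrillar collagen of distensible tissues and early repair. It was at 2857, 3242 and 3034 CPM in TranspCtrl and 1213, 1269 and 1277 CPM in TranspExer, and it fell by 1.28 on the log2 scale (SE 0.091, edgeR adjusted p = 8.104e-05). *Col5a2* (ENSMUSG00000026042, chr1:45374321-45503282, minus strand) encodes the α2 chain of type V collagen, which starts and limits fibril growth. It was at 2073, 1957 and 1857 CPM in TranspCtrl and 848.2, 877.5 and 844.6 CPM in TranspExer, and it fell by 1.196 (SE 0.086, edgeR adjusted p = 8.518e-05). For both genes the lowest TranspCtrl sample was above the highest TranspExer sample, and the 3 TranspCtrl samples lay close together.

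The α1 chain of type V fell less than α2. *Col5a1* (ENSMUSG00000026837, chr2:27886425-28039514, plus strand) was at 1115, 1551 and 1438 CPM in TranspCtrl and 754.1, 786.5 and 838.8 CPM in TranspExer, and fell by 0.79 on the log2 scale (SE 0.13, edgeR adjusted p = 0.003496). The third chain gene, *Col5a3*, went the other way, from 83.01, 105.4 and 96.2 CPM to 125.6, 123.2 and 135.2 CPM, a rise of 0.43 (SE 0.101, edgeR adjusted p = 0.01476). The call for *Col5a3* was lost without TranspExer replicate 3 (edgeR adjusted p = 0.06459). Within samples, the count ratio of *Col5a1* to *Col5a2* was 0.538 to 0.793 in TranspCtrl and 0.889 to 0.993 in TranspExer. The ratio of *Col5a3* to *Col5a2*, which was chosen after the values were seen, was 0.04 to 0.0539 in TranspCtrl and 0.14 to 0.16 in TranspExer. The type V chains were therefore not shifted by a common factor.

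The type I genes were the most abundant of all. *Col1a1* (ENSMUSG00000001506, chr11:94936224-94953042), which encodes the α1 chain, was at 4563, 9951 and 9613 CPM in TranspCtrl and 6795, 7164 and 7708 CPM in TranspExer. The TranspExer samples thus lay above TranspCtrl replicate 1 and below the other TranspCtrl libraries. Its log2 fold change was -0.16 (SE 0.263, edgeR adjusted p = 0.674) with all libraries, -0.44 (SE 0.05, edgeR adjusted p = 1.54e-05) without TranspCtrl replicate 1, and 0.029 without TranspCtrl replicate 2. *Col1a2* (ENSMUSG00000029661, chr6:4504814-4541544), the α2 chain gene, was at 5132, 7350 and 7029 CPM in TranspCtrl and 4071, 4297 and 4383 CPM in TranspExer, with no overlap. It fell by 0.61 on the log2 scale (SE 0.144, edgeR adjusted p = 0.0148), a call lost without TranspExer replicate 1 (-0.59, edgeR adjusted p = 0.05943) or 2 (-0.63, edgeR adjusted p = 0.05464), at about the same fold change.

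The type I molecule is built from α1 and α2 chains in a fixed proportion, but the RNA ratio was not fixed. The count ratio of *Col1a1* to *Col1a2* was 0.889, 1.354 and 1.368 in TranspCtrl and 1.669, 1.667 and 1.759 in TranspExer. TranspCtrl replicate 1 was again far from its group, and the groups remained apart without it. A ratio within a sample does not depend on how the libraries were scaled.

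Of the remaining fibrillar genes, those of cartilage collagen did not fall. *Col2a1*, which encodes the type II collagen of cartilage, was at 15.72, 23.26 and 22.55 CPM in TranspCtrl and 34.11, 35.86 and 38.4 CPM in TranspExer, and rose by 0.82 (SE 0.148, edgeR adjusted p = 0.005229). *Col11a2*, whose chain joins that of *Col11a1* in cartilage fibrils, had a log2 fold change of 0.51 (SE 0.213, edgeR adjusted p = 0.105) with 5.469, 3.696 and 3.208 CPM in TranspCtrl and 5.284, 6.277 and 6.011 CPM in TranspExer. It passed the test only without TranspCtrl replicate 1, the highest of its group (0.76, edgeR adjusted p = 0.002684). *Col27a1*, another collagen of cartilage, behaved alike, at 0.21 (edgeR adjusted p = 0.3367) with that library and 0.39 (edgeR adjusted p = 0.009908) without it. Of 7 chondrocyte markers 3 were above the filter, and none of these was called higher or lower by edgeR. Those above the filter were *Sox9* (57 to 163 counts over the libraries), *Comp* (5 to 17) and *Matn3* (9 to 17). The markers *Cnmd*, *Hapln1* and *Snorc* had at most 2 counts in any library. *Acan*, the gene of the cartilage proteoglycan aggrecan, was below the filter but had 0, 1 and 0 counts in TranspCtrl and 6, 13 and 9 counts in TranspExer, without overlap, and its part beside the cartilage collagens was not tested. In all, the summed level of the list was 4.44 to 8.79 CPM in TranspCtrl and 6.41 to 8.43 CPM in TranspExer.

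**Figure D2:**
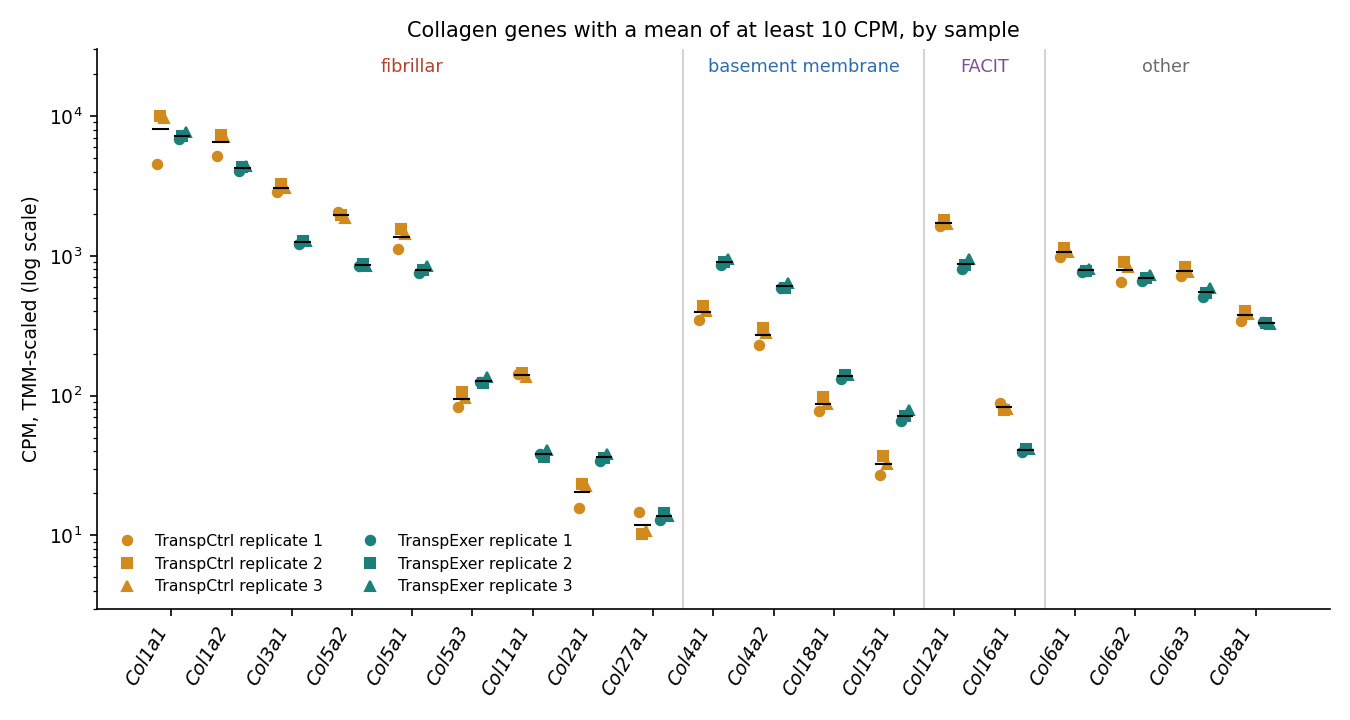
TMM-scaled CPM on a log axis (y) of the 19 collagen genes with a mean of at least 10 CPM, each point 1 sample and each bar a group mean, ordered by level within each type. *Col1a1* and *Col1a2* of TranspCtrl replicate 1 sit at 4563 and 5132 CPM, below the other TranspCtrl libraries, while *Col3a1*, *Col5a2*, *Col11a1* and *Col12a1* separate the groups with all 3 TranspCtrl samples close together.

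Promoter sequence is shown for 4 of the called genes, chosen after their values were seen: 3 fibrillar genes that fell and 1 basement membrane gene that rose, all with 250 bases before the RefSeq start site that hold no exon. Of the 44 genes, 35 had an entry in the RefSeq table (GRCm38.p6), which holds 32851 promoters. They were searched on both strands for the TATA box TATAAA, the CCAAT box CCAAT and the GC box GGGCGG, with matches of different motifs counted separately even where they overlap; these were found in 12.4%, 33.8% and 32.7% of all promoters over the same 250 bases. The median promoter had a GC content of 52.4% and 6 CpG dinucleotides. The sequences are written in the direction of transcription on the plus strand, at chr1:45311288-45311537 for *Col3a1*, chr2:27886175-27886424 for *Col5a1*, chr3:114030290-114030539 for *Col11a1* and chr4:47207762-47208011 for *Col15a1*. Capitals mark a match to a motif on either strand.

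*Col3a1*: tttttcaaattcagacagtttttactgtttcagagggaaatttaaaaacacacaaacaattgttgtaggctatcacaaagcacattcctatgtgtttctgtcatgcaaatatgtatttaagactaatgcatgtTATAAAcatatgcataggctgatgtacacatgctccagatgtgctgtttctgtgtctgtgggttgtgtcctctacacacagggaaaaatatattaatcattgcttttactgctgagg

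*Col5a1*: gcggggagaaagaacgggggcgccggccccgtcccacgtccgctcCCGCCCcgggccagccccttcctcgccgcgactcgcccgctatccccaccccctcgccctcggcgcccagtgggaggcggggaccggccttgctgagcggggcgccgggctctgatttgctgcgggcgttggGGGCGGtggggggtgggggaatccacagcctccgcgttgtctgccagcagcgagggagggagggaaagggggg

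*Col11a1*: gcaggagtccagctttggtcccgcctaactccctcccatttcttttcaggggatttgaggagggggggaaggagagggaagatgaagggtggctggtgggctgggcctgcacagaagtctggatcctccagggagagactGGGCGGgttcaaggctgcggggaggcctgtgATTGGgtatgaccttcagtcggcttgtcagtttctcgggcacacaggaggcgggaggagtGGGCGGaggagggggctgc

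*Col15a1*: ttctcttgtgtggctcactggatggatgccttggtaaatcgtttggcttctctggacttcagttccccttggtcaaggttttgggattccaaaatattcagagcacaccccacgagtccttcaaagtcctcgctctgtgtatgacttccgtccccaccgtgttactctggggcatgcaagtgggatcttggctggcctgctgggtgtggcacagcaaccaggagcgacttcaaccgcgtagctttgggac

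The 3 fibrillar windows shown differed in their make-up. The *Col3a1* window had 35.2% GC, no CpG and a TATA box whose first base lies 117 bases before the start site. The *Col5a1* window had 76.4% GC, 28 CpG and GC boxes at -205 and -73. The *Col11a1* window had 62.4% GC, a CCAAT box at -79 and GC boxes at -110 and -19. The window of *Col15a1*, which rose, had 53.6% GC and 8 CpG and held none of these motifs. Other genes that rose did hold them: the *Col5a3* window had 1 CCAAT box and 2 GC boxes and the *Col10a1* window 1 TATA box. The wholly exonic windows of *Col4a1* and *Col4a2* had 1 CCAAT box each, and the latter also 2 GC boxes. *Col18a1* had a window with 1 CCAAT box and 3 GC boxes and another with none of the motifs. Of the other fibrillar genes that fell and had an entry, the *Col24a1* window had 58% GC, 3 CpG and none of the motifs, and the *Col1a2* window, part of it exonic, had 62% GC, 1 CCAAT box and 2 GC boxes. A match is a description of the letters and not a measured binding site.

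Of the FACITs, the abundant members fell. *Col12a1* (ENSMUSG00000032332, chr9:79598991-79718831), which encodes the type XII collagen on the surface of type I fibrils, was at 1635, 1808 and 1679 CPM in TranspCtrl and 805.2, 852.8 and 952.6 CPM in TranspExer. It fell by 0.97 on the log2 scale (SE 0.098, edgeR adjusted p = 0.0003721), just inside the 2-fold limit, which it passed without TranspCtrl replicate 1 (-1.003), without TranspExer replicate 3 (-1.06) and with upper-quartile (-1.05) or library-size scaling (-1.06). *Col16a1*, a FACIT of fibrils and microfibrils, was at 88.87, 78.6 and 80.81 CPM in TranspCtrl and 39.5, 41.32 and 41.83 CPM in TranspExer, and fell by 1.02 (SE 0.079, edgeR adjusted p = 0.0001141), or by 0.96 without TranspCtrl replicate 1, inside that limit. In both genes each group was tight and the groups were far apart.

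The other FACIT genes had low levels. *Col14a1* was at 2.197, 2.105 and 2.139 CPM in TranspCtrl and 2.773, 3.894 and 4.222 CPM in TranspExer, a rise of 0.76 (SE 0.209, edgeR adjusted p = 0.02767) whose call was lost without TranspCtrl replicate 2 or 3 or TranspExer replicate 2 or 3 (log2 fold changes 0.62 to 0.75, edgeR adjusted p 0.06393 to 0.1132). *Col20a1* had 18, 15 and 19 counts in TranspCtrl and 8, 7 and 6 counts in TranspExer and fell by 1.17 (SE 0.311, edgeR adjusted p = 0.02422), but it failed the test in 9 alternative fits, among them each of the 6 that left out a library (-1.14 without TranspCtrl replicate 1, edgeR adjusted p = 0.05407), and shares 79 exon bases with the more abundant gene *BX649560.1* on the same strand, so its counts are uncertain. *Col9a3* had a log2 fold change of -0.53 (SE 0.43, edgeR adjusted p = 0.376), and of -0.056 without TranspCtrl replicate 1. *Col9a1*, *Col9a2*, *Col19a1* and *Col22a1* had at most 5 counts in any sample and were not tested.

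Among the other types, 2 of the 4 abundant genes passed the test. Type VI collagen forms beaded filaments around cells from the products of *Col6a1*, *Col6a2* and *Col6a3*. *Col6a1* was at 981, 1145 and 1056 CPM in TranspCtrl and 767.1, 782.7 and 804.3 CPM in TranspExer, and it fell by 0.44 on the log2 scale (SE 0.089, edgeR adjusted p = 0.008685). *Col6a3* was at 718.6, 832 and 766.7 CPM in TranspCtrl and 511.2, 539.7 and 589.4 CPM in TranspExer, and it fell by 0.50 (SE 0.095, edgeR adjusted p = 0.006479). For *Col6a2* the groups overlapped, with 648.4, 908.9 and 827.5 CPM in TranspCtrl and 661.6, 692.1 and 730 CPM in TranspExer. Its log2 fold change of -0.20 (edgeR adjusted p = 0.2738) became -0.32 (edgeR adjusted p = 0.0005491) without TranspCtrl replicate 1. The count ratio of *Col6a1* to *Col6a2* was 1.26 to 1.513 in TranspCtrl and 1.102 to 1.16 in TranspExer, the only one of the 5 ratios of chains listed for comparison that was lower in TranspExer.

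Type VIII collagen forms the hexagonal network of vessel walls and the cornea. *Col8a1* was at 343.9, 400.5 and 384 CPM in TranspCtrl and 336.4, 329.8 and 324.1 CPM in TranspExer, and did not pass the test (log2 fold change -0.19, SE 0.085, edgeR adjusted p = 0.1253), although the groups did not overlap. It passed with upper-quartile scaling (-0.27, edgeR adjusted p = 0.02526), with scaling by library size (-0.27, edgeR adjusted p = 0.02216) and without TranspCtrl replicate 1 (-0.25, edgeR adjusted p = 0.00122). Its partner *Col8a2* had 101, 120 and 138 counts in TranspCtrl and only 20, 14 and 7 counts in TranspExer, and fell by 2.99 (SE 0.318, edgeR adjusted p = 0.0004677). The count ratio of *Col8a1* to *Col8a2* thus went from 59.8 to 69.7 in TranspCtrl to 321.5 to 932 in TranspExer.

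Further genes of other types with low counts passed the 2-fold limit. *Col6a5*, a chain related to α3(VI), had 31, 48 and 39 counts in TranspCtrl and 2, 2 and 0 counts in TranspExer, which is at least 12.1-fold lower against a floor of 3 counts per library (edgeR adjusted p = 0.0007681). *Col23a1*, a transmembrane collagen, had 23, 20 and 31 counts in TranspCtrl and 5, 5 and 3 counts in TranspExer, and it fell by 2.35 on the log2 scale (SE 0.362, edgeR adjusted p = 0.002577). *Col7a1*, the collagen of anchoring fibrils in skin, was at 5.469, 4.826 and 2.883 CPM in TranspCtrl and 1.831, 1.744 and 2.533 CPM in TranspExer. Its log2 fold change was -1.10 (SE 0.282, edgeR adjusted p = 0.02119), and the call was lost without TranspCtrl replicate 2, TranspExer replicate 1 or TranspExer replicate 2 (log2 fold changes -1.03 to -1.01, edgeR adjusted p 0.05225 to 0.08174). Without TranspCtrl replicate 1 it was called but inside the 2-fold limit (-0.90).

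*Col10a1*, the type X collagen of hypertrophic cartilage, was the only gene of the group called higher. It had 20, 14 and 20 counts in TranspCtrl and 45, 38 and 40 counts in TranspExer, and rose by 1.31 (SE 0.236, edgeR adjusted p = 0.005179). It shares 18 exon bases with *Nt5dc1* on the opposite strand, which was at 391.7 counts on average, and whether strand was used in counting was not given in the sources used here. *Col6a4* (-0.32, edgeR adjusted p = 0.285) and *Col28a1* (0.19, edgeR adjusted p = 0.6306) did not pass. *Col6a6*, *Col13a1*, *Col17a1*, *Col25a1* and *Col26a1* had at most 5 counts in any sample.

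The composition of the collagen RNA changed along with its amount. Collagen genes took 2.274, 3.054 and 2.912% of all counts in TranspCtrl and 1.808, 1.909 and 1.985% in TranspExer, without overlap. Within the collagen counts, the basement membrane genes took 3.258, 2.908 and 2.792% in TranspCtrl and 8.819, 8.738 and 8.809% in TranspExer. Fibrillar genes took 75.73, 80.01 and 80.52% in TranspCtrl and 74.4, 74.64 and 74.37% in TranspExer, and FACITs took 6.11 to 8.18% and 4.54 to 4.87%. The shares of the other types overlapped, at 10.58 to 12.83% and 11.96 to 12.24%. The fibrillar sum was 16010, 24340 and 23240 CPM in TranspCtrl and 13900, 14610 and 15290 CPM in TranspExer, a log2 ratio of -0.54 that was -0.71 without TranspCtrl replicate 1 and became -0.84 when *Col1a1* was left out and -1.09 when both type I genes were. The share of *Col1a1* in the collagen counts was accordingly higher in TranspExer (36.38 to 37.5%) than in TranspCtrl (21.59 to 33.31%), and that of *Col3a1* lower (6.21 to 6.50% against 10.51 to 13.52%).

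**Figure D3:**
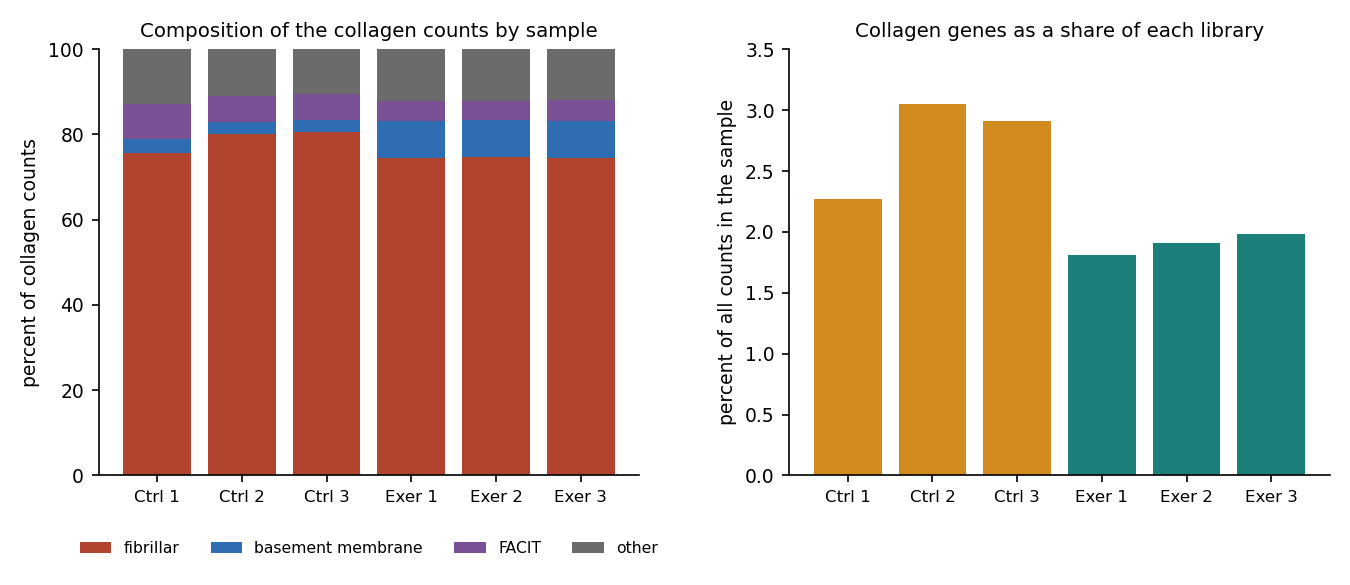
Left, percent of the collagen counts taken by each type (y axis, stacked bars) in the 3 TranspCtrl (Ctrl) and 3 TranspExer (Exer) samples; right, collagen genes as percent of all counts in each sample. The basement membrane band is 2.79 to 3.26% in TranspCtrl and 8.74 to 8.82% in TranspExer, and the bars on the right are lower in every TranspExer sample.

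Levels were set against each other per kilobase of the deposited gene length. In TranspCtrl the order in CPM per kilobase began with *Col1a1* (1356 ± 508.9, SD, n = 3) and *Col1a2* (1216 ± 224.1), which did not differ beyond their spread at this length, and went on with *Col3a1* (547.1 ± 34.7), *Col5a2* (296.2 ± 16.4), *Col6a1* (258.7 ± 20.1), *Col6a2* (201.3 ± 33.7), *Col5a1* (162.8 ± 26.9) and *Col12a1* (148.3 ± 7.81). *Col6a2* and *Col5a1*, and *Col5a1* and *Col12a1*, lay within their SDs of each other. *Col4a1* was in place 11 in TranspCtrl (59.99 ± 6.88) and in place 6 in TranspExer (136.9 ± 6.59), where it did not differ beyond the spread from *Col5a2* (129.3 ± 2.73). *Col4a2* went from place 12 to place 9, where it (93.76 ± 4.64) did not differ beyond the spread from *Col5a1* (94.35 ± 5.09). *Col11a1* went from place 13 (18.4 ± 0.71) to place 18 (5.01 ± 0.265). The order depends on the length used. Per kilobase of all annotated exons, *Col1a2* in TranspCtrl was at 523.4 beside 1225 for *Col1a1*, *Col6a1* (242.2) was above *Col5a2* (204.6), and *Col6a2* (95.48) was below *Col5a1* (161.2) and *Col12a1* (112.1). Per kilobase of coding length, *Col4a1* in TranspExer (180.9) was below *Col5a2* (190.8), and *Col4a2* (118.1) was below *Col5a1* (143.8) and *Col8a1* (147.9). The ratio of *Col4a1* to *Col3a1* counts, chosen after the values were seen, was 0.122 to 0.136 in TranspCtrl and 0.711 to 0.744 in TranspExer.

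**Figure D4:**
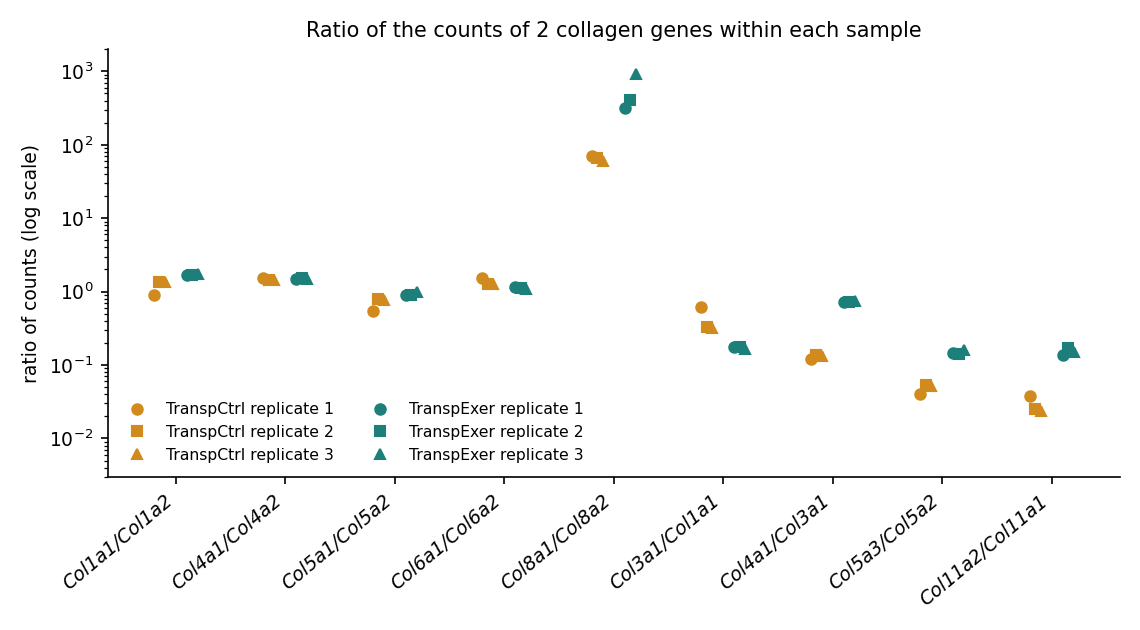
Ratio of the counts of 2 collagen genes within each sample (y, log axis), with TranspCtrl in orange and TranspExer in green; the first 5 pairs are chains of one collagen type and the last 4 were chosen after the values were seen. The groups overlap for *Col4a1*/*Col4a2* (1.42 to 1.53 over all samples) and are apart for every other pair drawn.

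The genes that prepare collagen chains were called lower more often than higher. Of 20 genes for hydroxylation, glycosylation, folding and export of procollagen, 18 were above the filter (1 listed symbol was not found in the table), and 1 was called higher and 11 lower, with a median log2 fold change of -0.39 (over all tested genes, here and for the lists that follow, 16.6% were called higher and 15.5% lower). The call higher was *P3h2*, a prolyl 3-hydroxylase gene that acts on type IV collagen (log2 fold change 0.65, SE 0.197, edgeR adjusted p = 0.0393, named after its value was seen), and it was lost without TranspCtrl replicate 2 or TranspExer replicate 2 or 3; it was also lost with scaling by library size, and the calls higher were 2 with DESeq2 and without TranspCtrl replicate 1. The prolyl 4-hydroxylase subunit gene *P4ha2*, needed for a stable helix, fell from 222.9 ± 2.77 to 89.8 ± 4.27 CPM, a log2 change of -1.31 (SE 0.075, n = 3, edgeR). The lysyl hydroxylase gene *Plod2*, which prepares the telopeptide cross-links of bone collagen, fell from 185.2 ± 8.69 to 79.3 ± 0.954 CPM, a log2 change of -1.22 (SE 0.074). The genes for later processing and crosslinking gave 4 called higher and 4 lower of 13 (median -0.059). *Pcolce*, which enhances removal of the procollagen C-propeptide, fell from 320.3 ± 9.48 to 142.3 ± 6.03 CPM (log2 -1.17, SE 0.077), and *Tll1*, a protease for that propeptide, rose from 0.723 ± 0.302 to 2.63 ± 0.689 CPM (log2 1.85, SE 0.346). Without TranspCtrl replicate 1 the calls lower were 15 among the genes that prepare collagen chains and 6 among those for later processing and crosslinking. The latter's 4 calls higher became 2 with scaling by library size, under the replicate block and in 5 of the 6 fits that left out a library (TranspCtrl replicates 2 and 3 and TranspExer replicates 1, 2 and 3).

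Genes for collagen receptors gave 5 called higher and 2 lower of 11 (median 0.12), the latter becoming 4 without TranspCtrl replicate 1. The adhesion receptor of type III collagen *Adgrg1* rose from 11.3 ± 2.32 to 42.3 ± 2.99 CPM (log2 1.90, SE 0.15), and the platelet collagen receptor *Gp6* from 2.16 ± 0.39 to 7.25 ± 1.16 CPM (log2 1.75, SE 0.199). Of 4 megakaryocyte markers 2 were called higher and none lower by edgeR, and their summed level was 243.4 to 308.9 CPM in TranspCtrl and 431 to 463.9 CPM in TranspExer. The part of these cells in the rise of *Gp6* was not tested. Genes for collagen breakdown gave 2 called higher and 5 lower of 11 (median -0.39). Their summed level was nevertheless higher in TranspExer (2464 to 2661 CPM) than in TranspCtrl (2282 to 2347 CPM). This came from *Ctsl*, the most abundant gene of the list. Its mean rose by more than the sum did, so the other genes summed to less in TranspExer than in TranspCtrl. Without TranspCtrl replicate 1 the calls lower were 7. The genes called higher, named after their values were seen, were cathepsin L (*Ctsl*), which rose from 887.6 ± 156.9 to 1581 ± 77.2 CPM (log2 0.83), and the membrane-type metalloproteinase *Mmp15*, which rose from 3.44 ± 1.303 to 10.2 ± 0.607 CPM (log2 1.56). Cathepsin K (*Ctsk*) fell from 152.3 ± 32.5 to 26.7 ± 1.55 CPM (log2 -2.51), the gelatinases *Mmp9* from 303.1 ± 63.7 to 56.6 ± 2.95 CPM (log2 -2.42) and *Mmp2* from 160.5 ± 7.75 to 76.1 ± 4.70 CPM (log2 -1.08).

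**Figure D5:**
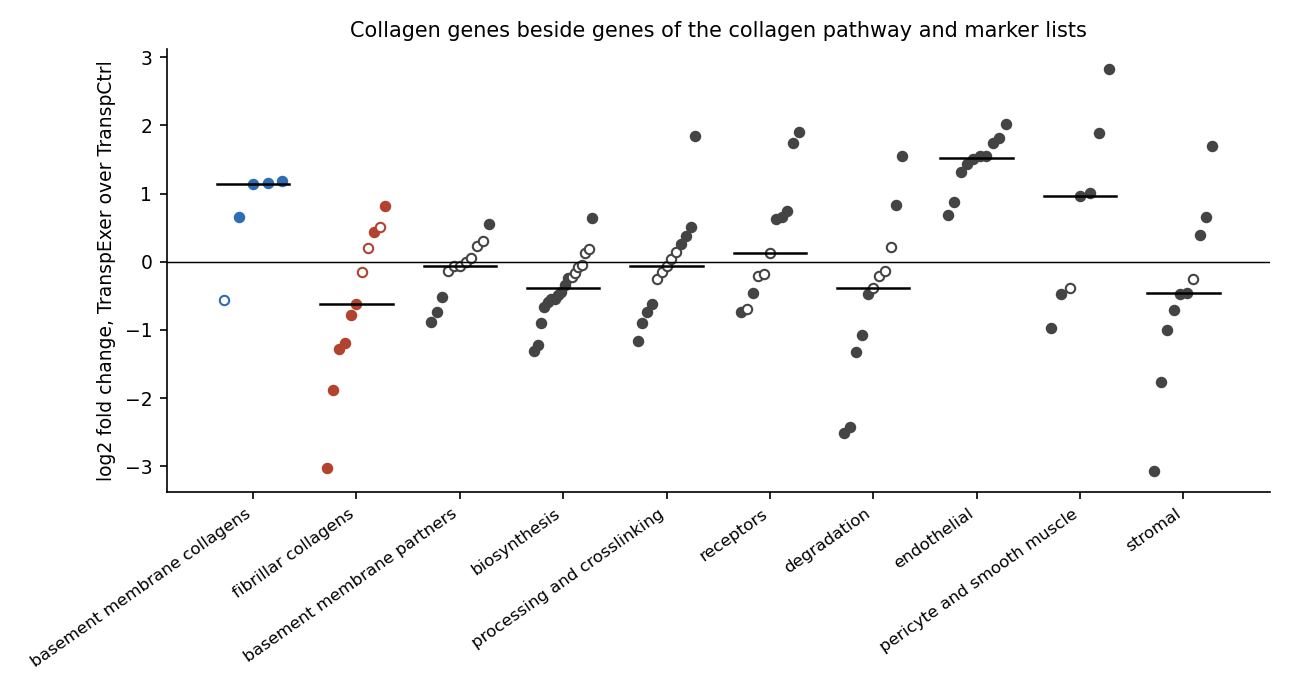
Log2 fold change of TranspExer over TranspCtrl (y) of the genes above the low-count filter in each list (x), filled where the adjusted p was below 0.05 and open otherwise, with a bar at the median. The medians are 1.15 for basement membrane collagens, -0.61 for fibrillar collagens, -0.055 for basement membrane partners, -0.39 for biosynthesis and 1.53 for endothelial markers.

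Some markers of tendon and bone cells were lower in TranspExer as well. Of 4 tendon markers 3 were called lower and none higher, with a summed level of 56.2 to 81.8 CPM in TranspCtrl and 21.7 to 24.7 CPM in TranspExer: the log2 fold change was -1.86 for *Fmod*, -3.70 for *Tnmd* and -1.86 for *Scx*, while *Mkx* did not pass (0.35, edgeR adjusted p = 0.1361). Of 8 osteoblast markers 6 were above the filter, of which 4 were called lower and none higher, and the summed level was 2817 to 3521 CPM in TranspCtrl and 2660 to 2913 CPM in TranspExer, which overlapped. The log2 fold change was -2.96 for *Ibsp*, -1.07 for *Sp7* and -1.39 for *Phex*. *Runx2* (-0.12, edgeR adjusted p = 0.6629) and *Spp1* (-0.087, edgeR adjusted p = 0.6117) did not pass. *Dmp1*, below the filter, had 6, 2 and 7 counts in TranspCtrl and 10, 16 and 13 counts in TranspExer, and the late marker *Bglap* had at most 1 count in any library. Among the stromal markers 3 were called higher and 6 lower, with log2 fold changes of -1.76 for *Dcn*, -1.003 for *Pdgfra* and 1.69 for *Eng*, which endothelial cells also express. Of 7 macrophage markers 1 was called higher and 1 lower. All 6 B and plasma cell markers were called lower, with sums of 1496 to 1902 CPM in TranspCtrl and 337.8 to 371.3 CPM in TranspExer. Of 6 neutrophil markers 2 were called higher and 1 lower, with sums of 1786 to 2685 CPM in TranspCtrl and 3289 to 3544 CPM in TranspExer. Those called higher were *Mpo* (216.1 ± 57.2 to 1197 ± 73.3 CPM) and *Elane* (97.5 ± 22.9 to 434.6 ± 7.68 CPM). Of the 3 adipocyte markers above the filter 2 were higher, of the 2 nerve markers 1 was lower, and the erythroid markers summed to at most 0.419 CPM. The part of any of these cells in the collagen changes was not tested.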

How the data were processed

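RNA from cultured marrow cells of 3 TranspCtrl and 3 TranspExer samples had been sequenced on an Illumina instrument. The authors deposited 1 table of expected counts per gene with gene lengths. The build was mm10 per the submitters' processing notes; the aligner, counter and annotation were not given in the sources used here. Between 10.06 and 12.18% of the values of a sample were not whole, and all were rounded before testing. Reads of overlapping genes may have been split between them by such estimates. The whole table was fitted with edgeR 4.0.16 in R 4.3.3 (filterByExpr, TMM), using the quasi-likelihood test for the group and no covariate. That test returns no standard error. Each SE given is the absolute log2 fold change divided by the square root of the test's F statistic. P-values were adjusted by Benjamini and Hochberg's method across the 15190 genes tested. A gene was called at an adjusted p below 0.05 and was a DEG with an absolute fold change of at least 2 as well. CPM are TMM-scaled. Positions and exon overlaps came from GENCODE M21 (GRCm38). Sums, shares and ratios were not tested. The scripts were tested on simulated data.

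Members and gene lists were chosen with earlier results of these data known. Values in every sample are given for DEGs and for members with a mean of at least 100 CPM, tests for members called or with at least 10 CPM, and up to 3 DEGs of each other list by the smallest adjusted p. Alternatives were other scalings, DESeq2 1.42.0, no filter, a stricter filter (1 CPM in 3 samples), a replicate block, a fold change of 2 tested in the model, and leaving out each library.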

Additional observations from a re-analysis of the deposited data

How the results depend on the processing

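Across the alternatives, 297 of 323 values for 27 collagen genes kept their direction and their side of the threshold, 19 lost the call, 6 gained it and 1 reversed. With a fold change of 2 tested within the model (edgeR glmTreat), 0 collagen genes passed as higher and 4 as lower, in place of 4 and 10; at an unadjusted p below 0.05 of that test the counts were 4 and 7. Leaving out each library gave 6 to 10 collagen genes called higher and 12 to 17 lower, and 1315 to 3417 and 1325 to 3041 over all genes. The log2 fold change of *Col1a1* ran from -0.44 to 0.029 over these fits, the last without TranspCtrl replicate 2, and the cause was not tested. The log2 ratio of the fibrillar sum was -0.84 without *Col1a1*. Same-numbered samples of the groups had correlations of 0.025, -0.002 and 0.042 between their deviations from the group means. With 3 samples per group such values cannot show whether these samples share more than a number. With the replicate block, 8 collagen genes were called higher and 14 lower, the one lost being *Col20a1* (edgeR adjusted p = 0.05605), and 2484 and 2218 over all genes. Genes with few counts in a group, such as *Col20a1*, *Col24a1* and *Col23a1* in TranspExer, are limited by counting error.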
